A study of Mus musculus with 15 samples.

Results

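The genes described here set or mark the mesenchymal and the epithelial state of a cell. They are Snai1, Snai2, Zeb1, Zeb2, Twist1, Twist2 and Vim on the mesenchymal side, and Grhl2, Esrp1 and Esrp2 on the epithelial side. A member was a probe set whose annotation gave exactly 1 gene symbol and that symbol was in this list. All 10 genes had 1 such probe set, out of 19938 genes measured. Expression was measured on 15 arrays of cells sorted by fluorescence from kidneys of newborn mice, 3 pooled samples on each of postnatal days P0, P1, P2, P3 and P4. Every sample, on every day, came from CD-1 mice that carried the Tg(Crym-EGFP)82Gsat transgene, in which Crym sequence drives the green fluorescent protein used for sorting. The labels call the cells of P0 to P3 cap mesenchyme and those of P4 renal vesicle, so compartment and age cannot be told apart at P4. No sample of unsorted kidney or of EGFP-negative cells was compared here, and the labels give neither the sex of the pups nor the sorting gate. Replicates are numbered as in their titles. Nothing in the labels says whether the pools of a day shared a litter, and p-values therefore refer to the variation among pools, which may be technical.

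In the developing kidney the cap mesenchyme, a layer of nephron progenitors, condenses around the tips of the ureteric bud and turns into an epithelial vesicle, the renal vesicle, from which a nephron forms. Snai1, Snai2, Zeb1, Zeb2, Twist1 and Twist2 encode transcription factors known for favouring mesenchymal character. The Snai and Zeb factors are zinc finger proteins that bind E-box sequences and repress epithelial genes such as Cdh1, and the Twist factors belong to the basic helix-loop-helix family. Vim encodes vimentin, the intermediate filament of mesenchymal cells. Grhl2 encodes a grainyhead-like transcription factor that activates junction genes, and Esrp1 and Esrp2 encode the splicing factors that direct epithelial splice forms of many transcripts.

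The labels were checked against markers. All 8 cap mesenchyme markers, among them Six2 and Crym, were lower at P4 than over P0 to P3, and 5 of 8 renal vesicle markers, among them Jag1 and Lhx1, were higher. Part of this shift was present before P4. Over P0 to P3, 5 of the 8 cap markers fell and 5 of the 8 vesicle markers rose. From P3 to P4, 5 cap markers were lower and 1 vesicle marker, Dkk1, was higher. The mean of Lhx1 was 7.14 at P0, 9.86 at P3 and 10.25 at P4, and that of Jag1 was 7.30, 9.71 and 10.49. Crym, whose sequence drives the EGFP used for sorting, is not a marker independent of the sort. Its mean was 11.91 at P0, 10.43 at P3 and 7.80 at P4. The range of the values fits a log2 scale, and the medians of the 15 arrays lay between 6.80 and 6.92. No pair of arrays was identical, with correlations from 0.9539 to 0.9951. The first replicate of each of the 5 days stood apart from replicates 2 and 3. It was separated from them along the leading axis of a principal component analysis (39.3% of the variance), and the interquartile range of its values was 2.14 to 2.27 against 2.52 to 2.77. Differences are therefore also given within the first replicates and within replicates 2 and 3. The deposited values carry no detection call, so 1027 olfactory receptor genes, which kidney cells are not known to use widely, served as a reference for dim probe sets. Their means had a median of 5.16 and a 95th percentile of 6.79.

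The levels of the mesenchymal members were mostly clear of that reference and those of the epithelial members were not. The mean over all 15 arrays was 9.88 for Vim, 9.14 for Zeb1, 8.95 for Snai2, 7.77 for Zeb2 and 7.40 for Snai1, and between 98.8% and 100% of the olfactory receptor genes lay below these 5 genes. Twist1, at 6.84, and Twist2, at 6.75, lay near the 95th percentile of the reference. Esrp2 at 6.34, Grhl2 at 6.09 and Esrp1 at 5.88 lay inside its range. Levels of different genes rest on different probes and are not ordered further. For Grhl2, 75.9% of the olfactory receptor genes lay below its mean of P0 to P3 and 97.2% below its mean at P4, whereas the same shares for Esrp1 were 73.4% and 89.4%.

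Grhl2 had the largest difference of the members between P4 and the mean of P0 to P3. Its values at P0 were 5.97, 5.60 and 5.97 in replicates 1, 2 and 3, at P1 5.89, 5.77 and 5.73, at P2 5.87, 5.61 and 5.95, and at P3 6.01, 5.97 and 5.70. At P4 they were 6.69, 7.42 and 7.14. The 12 earlier samples thus stayed within a narrow band with no order among the days, and all 3 P4 samples lay above all of them, as did those of 1.8% of all genes (0.918% had all P4 samples below, 2.72% either). The mean at P4 was 7.08 ± 0.37 (SD, n = 3), which was higher than the mean of P0 to P3 by 1.25 on the log2 scale (SE 0.14, 95% interval 0.95 to 1.54, adjusted p = 6.23e-05 in limma with Benjamini-Hochberg adjustment), or 2.37-fold. The step from P3 to P4 alone was 1.19 (SE 0.17, limma adjusted p = 0.00341), and it was upward in all 3 replicate numbers. No trend from P0 to P3 was detected, with a slope of 0.02 per day (95% interval -0.10 to 0.13). The difference at P4 was 1.49 within replicates 2 and 3 and 0.75 within the first replicates, and leaving out any 1 of the 15 samples kept the call (largest limma adjusted p 0.00131).

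Esrp1 followed the same course on a smaller scale. The values were 5.98, 5.70 and 5.73 at P0, 5.68, 5.72 and 5.71 at P1, 6.02, 5.81 and 5.56 at P2, 5.74, 5.70 and 5.75 at P3, and 6.30, 6.34 and 6.49 at P4. Again every P4 sample was above every earlier one. The P4 mean of 6.38 ± 0.10 (SD, n = 3) exceeded that of P0 to P3 by 0.62 (SE 0.10, 95% interval 0.41 to 0.83, limma adjusted p = 0.00155), 1.54-fold, and that of P3 by 0.65 (SE 0.12, limma adjusted p = 0.0216). The first of these calls held without any 1 sample (largest adjusted p 0.0228). The step from P3 to P4 lost its call without any 1 of the P3 samples or without P4 replicate 2 or 3, with limma adjusted p between 0.0668 and 0.124 in these 5 fits. Since Grhl2 and Esrp1 lay in the range of the olfactory receptor genes before P4, their folds rest on a low starting level at which background may hold part of the value, which was not tested.

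Esrp2, the paralogue of Esrp1, did not pass the test. Its values before P4 ran from 6.09 to 6.39, and at P4 they were 6.30, 6.54 and 6.81. Replicate 1 of P4 lay among the earlier samples and the other two above them. The difference was 0.26 (95% interval 0.03 to 0.48, limma adjusted p = 0.325), with 0.37 within replicates 2 and 3 and 0.03 within the first replicates.

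**Figure D1:**
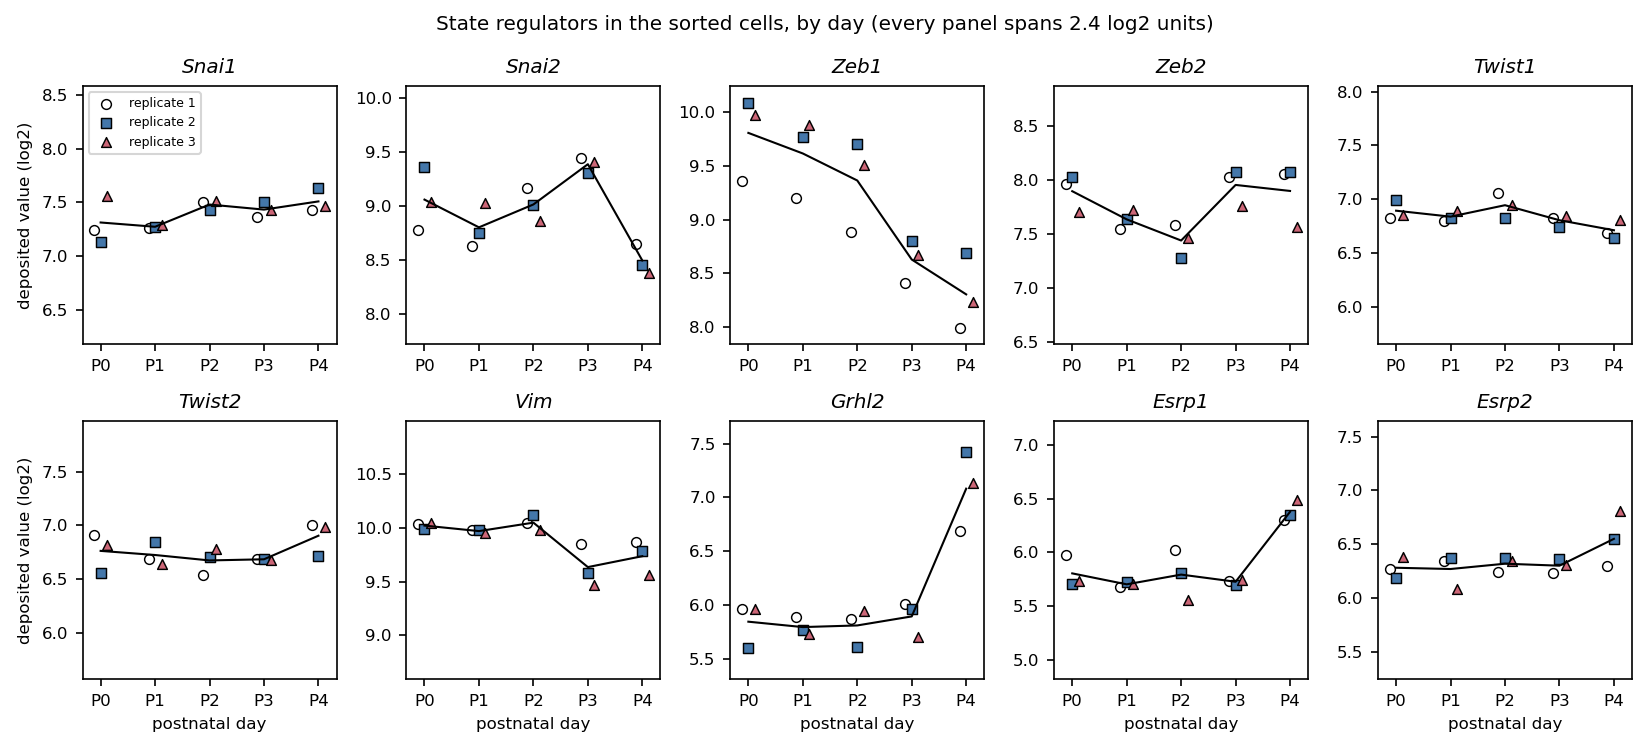
Deposited log2 values (y axis) of the 10 members by postnatal day (x axis). Each point is 1 pooled sample, with the symbol giving the replicate number, and the line joins the means of the 3 samples of a day. Grhl2 and Esrp1 are level from P0 to P3 and higher at P4, Zeb1 falls from day to day, and Snai2 is lowest at P4.

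Among the mesenchymal members Zeb1 changed most, and it did so before P4. Its values in replicates 1, 2 and 3 were 9.36, 10.09 and 9.97 at P0, 9.20, 9.77 and 9.88 at P1, 8.88, 9.70 and 9.51 at P2, 8.41, 8.81 and 8.67 at P3, and 7.997, 8.69 and 8.23 at P4. Within each replicate number the value fell at each of the 4 steps, and the first replicate was the lowest of the 3 on every day. The day means were 9.81 ± 0.39, 9.61 ± 0.36, 9.36 ± 0.43, 8.63 ± 0.20 and 8.31 ± 0.35 (SD, n = 3 each). In this order the ranges of P2 and P3 did not overlap and those of the other neighbouring days did. The slope over P0 to P3 was -0.38 log2 units per day (SE 0.08, 95% interval -0.55 to -0.20, limma adjusted p = 0.0321). Zeb1 was the only member with a call for the slope, which 1.63% of all genes passed (0.843% upward, 0.782% downward).

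From P0 to P4 the mean of Zeb1 fell by 1.501, of which 1.18 was reached at P3. The step from P3 to P4 was -0.32, and its 95% interval from -0.88 to 0.23 included no change. Against the mean of P0 to P3 the P4 samples were lower by 2.07-fold (log2 -1.05, SE 0.20, limma adjusted p = 0.00774), with -1.09 within replicates 2 and 3 and -0.97 within the first replicates. This call was lost without P4 replicate 1 or 3 (adjusted p 0.065 and 0.0636). In the limma fit of all 15 samples with the replicate number as a block, its adjusted p was 2e-06. The call for the slope was lost in 7 of the 15 fits that left out 1 sample, those without replicate 2 or 3 of P0 or of P1 or without any 1 of the P3 samples, with adjusted p from 0.0501 to 0.134. With the replicate number as a block, the slope of Zeb1 had an adjusted p of 1.62e-05, and 931 genes in place of 324 passed for the slope.

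Snai2 took another course. Its values were 8.78, 9.36 and 9.04 at P0, 8.63, 8.75 and 9.03 at P1, 9.17, 9.01 and 8.86 at P2, 9.45, 9.30 and 9.41 at P3, and 8.65, 8.45 and 8.38 at P4. The highest mean, 9.39 ± 0.077 (SD, n = 3), was that of P3 and the lowest, 8.49 ± 0.14, that of P4, and neighbouring days in the order of the means overlapped. All P4 samples lay below all P3 samples, while P4 replicate 1 overlapped with the lowest sample of P1. The fall from P3 to P4 was 0.89 on the log2 scale (-0.89, SE 0.15, 95% interval -1.23 to -0.56, limma adjusted p = 0.0108), 1.86-fold, and it was present in all 3 replicate numbers. Against the mean of P0 to P3 the difference was -0.57 (SE 0.12, limma adjusted p = 0.0153), with -0.68 within replicates 2 and 3 and -0.36 within the first replicates. A slope of 0.12 per day over P0 to P3 did not pass (limma adjusted p = 0.438). The difference from P0 to P3 lost its call without P4 replicate 2 or 3 (adjusted p 0.0959 and 0.126), and that from P3 without P3 replicate 1, P4 replicate 2 or P4 replicate 3 (0.054, 0.0563 and 0.0676). In the limma fit of all samples with the replicate number as a block, the adjusted p of these 2 differences was 0.00581 and 0.00346.

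The cells of the stroma that surround the cap express several mesenchymal genes as well, and some markers of that lineage fell over the same days as Zeb1. The summed level of 10 stroma markers, on the log2 scale, ranged from 11.17 to 11.29 at P0, from 10.40 to 10.59 at P3 and from 10.57 to 10.79 at P4. Of these 10 markers, 4 fell over P0 to P3, against 0.782% of all genes, and 6 were not called for the slope. At P4, 1 of the 10, Foxd1, a transcription factor of stromal progenitors, was lower at P4 than over P0 to P3 (log2 -0.74, limma adjusted p = 0.00708, lost without P4 replicate 2). The mean of Foxd1 was 9.72 at P0, 8.32 at P3 and 8.49 at P4. Markers of the cap mesenchyme fell over the same days as well. The summed level of the 8 cap markers ranged from 13.23 to 13.72 at P0, from 12.27 to 12.47 at P3 and from 10.68 to 10.91 at P4. Of these 8 markers, 5 were called falling over P0 to P3. The part of stromal cells or of cap mesenchyme cells in the fall of Zeb1 was not tested. In pooled cells, fewer cells of a type and less RNA per cell cannot be told apart.

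Vim was high on all days, with 94.3% of all genes below its mean. Its values were 10.03, 9.99 and 10.04 at P0, 9.98, 9.98 and 9.95 at P1, 10.04, 10.12 and 9.98 at P2, 9.85, 9.58 and 9.47 at P3, and 9.86, 9.78 and 9.56 at P4. The means of P3 and P4, 9.63 and 9.74, were the lowest of the days, but no contrast passed after adjustment. The difference at P4 was -0.18 (95% interval -0.38 to 0.02, limma adjusted p = 0.554), and the slope over P0 to P3 was -0.11 per day (limma adjusted p = 0.274). In the test of any difference among the 5 days its limma adjusted p was 0.198, against 0.0456 with the replicate number as a block and 0.0484 with the first replicates against the others as a block.

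The day means of Zeb2, the paralogue of Zeb1, parted from those of Zeb1 after P2. From P0 to P1 and from P1 to P2 the mean of Zeb2 changed by -0.26 and -0.20, and that of Zeb1 by -0.19 and -0.25. From P2 to P3 the change was 0.52 for Zeb2 and -0.73 for Zeb1. The values of Zeb2 were 7.96, 8.02 and 7.71 at P0, 7.55, 7.64 and 7.72 at P1, 7.58, 7.28 and 7.46 at P2, 8.03, 8.07 and 7.76 at P3, and 8.06, 8.07 and 7.57 at P4. The lowest mean, 7.44, was that of P2 and the mean at P4 of 7.90 equalled that at P0 within 0.01. The difference at P4 from P0 to P3 was 0.17 (95% interval -0.09 to 0.43, limma adjusted p = 0.848), and the test of any difference among the days gave a limma adjusted p = 0.296.

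Snai1 and the Twist genes showed no change that passed a test. Snai1 ranged from 7.13 to 7.63 over the 15 samples, and its difference at P4 was 0.13 (95% interval -0.07 to 0.33, limma adjusted p = 0.825). Twist1 ranged from 6.74 to 7.06 before P4 and from 6.64 to 6.81 at P4, with a difference of -0.16 (95% interval -0.33 to 0.02). Twist2 ranged from 6.54 to 6.91 before P4 and from 6.72 to 7.01 at P4, with a difference of 0.19 (95% interval -0.02 to 0.40). The bounds of these intervals are smaller in size than the differences of Grhl2 and Zeb1 at P4. The Twist genes were measured at a level near the top of the range of the olfactory receptor genes.

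Over the 10 members, 2 were higher at P4 than over P0 to P3 (Grhl2 and Esrp1), 2 were lower (Zeb1 and Snai2) and 6 were not called, and 5 had p under 0.05 before adjustment. Across all genes 3.48% were called (2.23% higher, 1.25% lower). The median difference was 0.151 over the members and 0.00127 over all genes. From P3 to P4, Grhl2 and Esrp1 were higher and Snai2 lower, against 0.853% of all genes called (0.637% higher, 0.216% lower) and 7.84% with P3 and P4 samples that did not overlap. Any difference among the 5 days was called for Grhl2, Zeb1, Esrp1 and Snai2 (limma adjusted p = 0.00119, 0.00837, 0.0189 and 0.0286), against 3.13% of all genes. The call of Snai2 in that test was lost in 8 of the 15 fits that left out 1 sample and that of Esrp1 in the 3 that left out a P4 sample. A filter that kept genes above the overall median of 6.86 in at least 3 arrays left 7 members and took out all 3 epithelial ones, so the tests above were run without a filter.

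**Figure D2:**
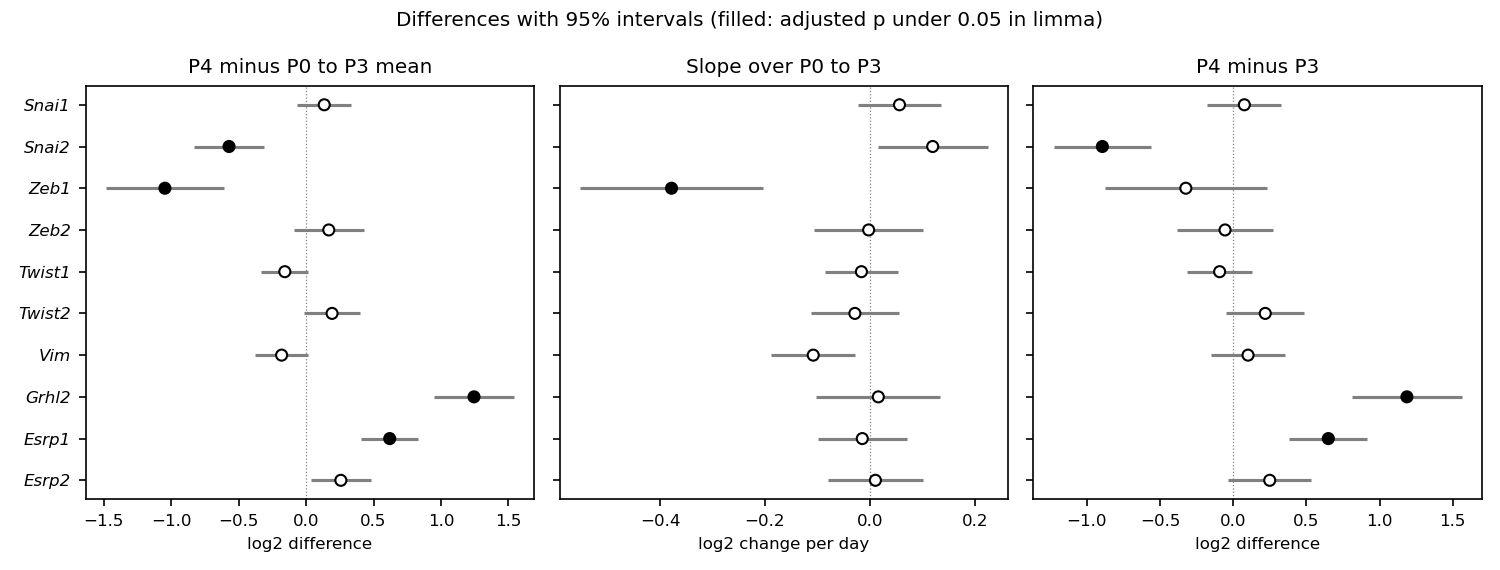
Log2 differences of the 10 members in 3 contrasts of the limma model, P4 minus the mean of P0 to P3, the change per day over P0 to P3, and P4 minus P3 (x axes, log2). Points are estimates, lines their 95% intervals, and filled points have an adjusted p under 0.05, namely Snai2, Zeb1, Grhl2 and Esrp1 in the first contrast, Zeb1 in the second, and Snai2, Grhl2 and Esrp1 in the third.

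The members with a call did not share 1 time course. Zeb1 had covered most of its fall by P3, when Grhl2 and Esrp1 were still at the level of P0 (log2 0.05 and -0.08 from it) and Snai2 was at its highest. Across the 15 arrays, with values centred within the first replicates and within replicates 2 and 3, the correlation was 0.878 between Grhl2 and Esrp1, 0.848 between Zeb1 and Vim, -0.699 between Zeb1 and Grhl2 and -0.698 between Snai2 and Grhl2. These are descriptions over 15 samples that share 5 days and are not independent.

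**Figure D3:**
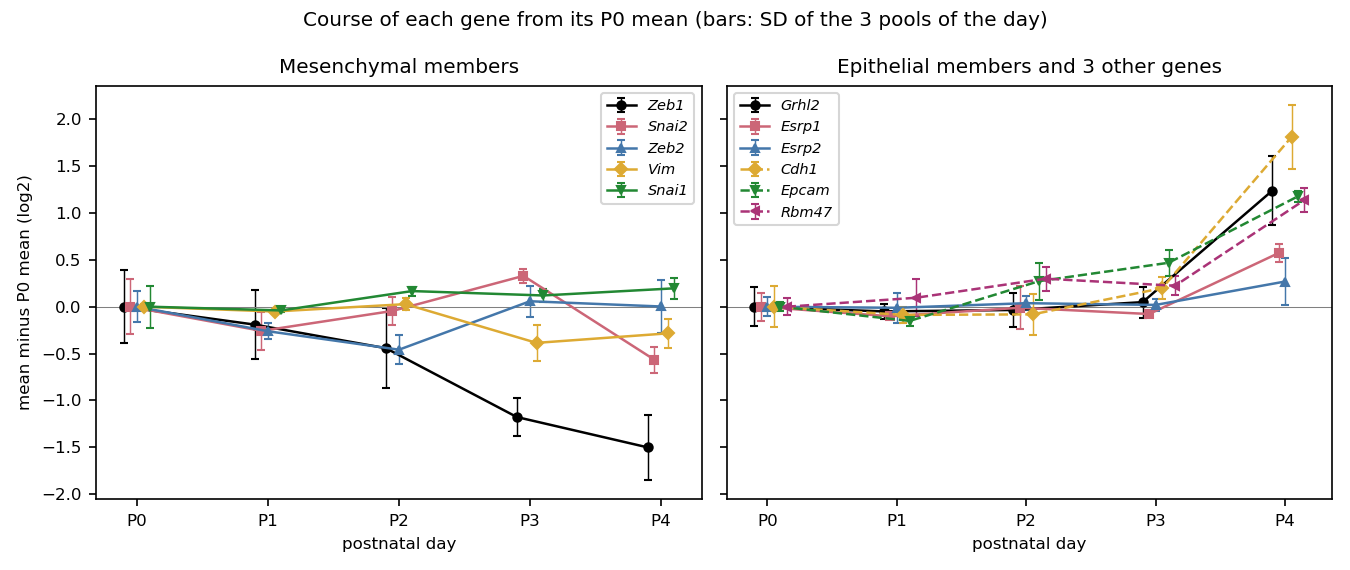
Mean of each day minus the mean of P0 (y axis, log2) by postnatal day (x axis), for 5 mesenchymal members on the left and, on the right, the 3 epithelial members with Cdh1, Epcam and Rbm47 (dashed). Bars give the SD over each day's 3 samples. Zeb1 is down by 1.18 at P3, a day on which Grhl2 and Esrp1 are within 0.1 of P0.

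Patterns were compared by Pearson correlation over the same 15 centred values, with 10428 genes. These had a mean over the 15 arrays above the overall median of 6.86, and members and clone or accession names were left out. Genes that were dimmer on average could therefore not be listed, also where they were higher at P4. The genes most like a member differed between members. For Zeb1 they were Robo2 (0.982), Meox2 (0.982) and Tgfbi (0.98). Robo2, a receptor of the Slit ligands, went from 10.90 at P0 to 9.17 at P3 and 8.65 at P4, and Meox2, a homeobox factor, from 9.14 to 7.58 and 6.81. For Grhl2 they were Cdh16 (0.963), the kidney cadherin, Npnt (0.96), an integrin ligand of the basement membrane, and Cdh1 (0.96). Esrp1 was closest to Cdh1 (0.946), Cobll1 (0.928) and Slc22a6 (0.921), and Snai2 to Eif4e (0.882), Cth (0.874) and Tcf7l2 (0.873). The means of Slc22a6 at P0 (6.76) and P3 (6.76) were below the overall median, and that at P4 was 7.23.

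Other regulators of the epithelial state were few among the changes. Of 12 measured, 2 were higher at P4 and none lower, with a median difference of 0.148. Rbm47, an RNA-binding protein of epithelia, had a mean of 6.07 at P0, 6.29 at P3 and 7.21 at P4, and it was higher at P4 than over P0 to P3 by 0.98 (SE 0.10, limma adjusted p = 3.05e-05). Tfcp2l1, a factor of the grainyhead superfamily, went from 6.48 at P0 and 6.54 at P3 to 7.37 at P4 (difference 0.87, limma adjusted p = 0.000877). For both genes all P4 samples lay above all earlier ones. The differences of Grhl3 and Ovol1 were 0.41 and 0.30 and did not pass (adjusted p = 0.0793 for Grhl3), although Grhl3 passed after quantile normalisation (0.0402) and with a block for the replicate number (0.00968) or for the first replicates against the others (0.0322). Grhl1, picked out after its values were seen, was the only one of the 12 to rise over P0 to P3. Its means were 6.41, 6.61, 6.87 and 7.24 from P0 to P3, a slope of 0.28 per day (limma adjusted p = 0.00226), and 7.03 at P4.

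Genes that build epithelial junctions and membranes, the epithelial effectors, were in part higher at P4. Of 30 such genes, 13 were higher at P4 than over P0 to P3, against 2.23% of all genes, none was lower and 17 were not called, and in 15 all P4 samples lay above all earlier ones. The median difference was 0.481. Cdh1, the adhesion molecule E-cadherin, had means of 7.15 at P0, 7.35 at P3 and 8.96 at P4 and was 3.49-fold higher than over P0 to P3 (log2 1.80, SE 0.14, limma adjusted p = 2.74e-06). Mal2, a protein of apical transport, went from 5.61 and 5.60 to 7.56, 3.70-fold (adjusted p = 2e-05), and Spint1, an inhibitor of membrane serine proteases, from 6.57 and 6.92 to 7.85 (adjusted p = 1.24e-05). Epcam, an epithelial adhesion molecule, was the only one of the 30 to rise over P0 to P3 as well, by 0.18 per day (limma adjusted p = 0.0211), with means of 6.84 at P0, 7.31 at P3 and 8.02 at P4. The others that were higher at P4 were Cldn6, Cldn7, Ocln, Marveld2, Patj, Dsp, Krt8, Spint2 and St14. Leaving out 1 sample gave 9 to 14 genes of this list.

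The ureteric bud is itself an epithelium, and its markers were looked at beside these genes. Of 9, Gata3 was higher at P4 (6.16 over P0 to P3 against 8.04, limma adjusted p = 5.64e-06) and 8, among them Ret and Wnt11, which mark the bud tip, were not called. Ret had a mean of 6.47 at P4 and Wnt11 of 6.59, both below the 95th percentile of the olfactory receptor genes. Calb1 (5.78) and Elf5 (5.68) were below it at P4 as well. The P4 means of Gata3, Hoxb7 (8.43), Wnt9b (7.39), Aqp2 (7.38) and Krt7 (7.13) were above it. The summed level of the 9 ranged from 9.87 to 10.35 over P0 to P3 and from 10.34 to 10.59 at P4. The sum was formed from linear values and includes Gata3, whose log2 difference at P4 was 1.88. The differences of the other 8 ran from -0.03 (Elf5) to 0.27 (Calb1), so the sum does not show a rise of the whole set. The part of bud cells in the rise of Grhl2, Esrp1 and the junction genes was not tested. Of 8 endothelial markers none had a mean above that 95th percentile, and Tek was called higher at P4 (0.40, limma adjusted p = 0.0143, 0.0522 within replicates 2 and 3). None of 7 macrophage and of 3 measured erythroid markers was called by limma at P4, over P0 to P3 or from P3 to P4. For P4 against P0 to P3, 0 and 0 had p under 0.05 before adjustment. Over P0 to P3 the macrophage marker Cd68 had a slope of -0.27 per day (limma adjusted p = 0.0781). Its mean was 8.31 at P0 and 7.37 at P3.

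Since the Snai and Zeb factors are known to bind the E-box of epithelial promoters, the 250 bases before the start of each gene were searched for CAGGTG and its reverse complement CACCTG, in windows of RefSeq genes on the GRCm38.p6 assembly. Of 10 epithelial effectors higher at P4 with such a window, 7 (70.0%) held the motif in at least 1 listed window, and of 11 that were not called 8 (72.7%) did. Cdh1, Mal2 and St14, which were also higher at P4, had no window and were not searched. The share was 19.4% over all 27025 genes with a window and 19.3% over the 15614 of them on the array. The shares of the genes that rose and of those that were not called were thus close. The motif AACCNGTT of the grainyhead family, searched with its reverse complement AACNGGTT, was held by 2.0% of all genes, by none of the 10 and by 2 of the 11. Of the 5 members with a window, Snai1, Zeb2, Twist1, Twist2 and Vim, Snai1 held the E-box and none held the grainyhead motif. Zeb1, Snai2, Grhl2, Esrp1 and Esrp2 had no window. A match is a description of the letters and not a binding site. The windows of Epcam and Spint1 are shown as a promoter with and a promoter without the motif, both on the plus strand, among the 4 epithelial effectors with the smallest p. Capitals mark the E-box, 187 and 19 bases before the start of Epcam, and the windows are chr17:87635729-87635978 for Epcam and chr2:119237110-119237359 for Spint1.
Epcam: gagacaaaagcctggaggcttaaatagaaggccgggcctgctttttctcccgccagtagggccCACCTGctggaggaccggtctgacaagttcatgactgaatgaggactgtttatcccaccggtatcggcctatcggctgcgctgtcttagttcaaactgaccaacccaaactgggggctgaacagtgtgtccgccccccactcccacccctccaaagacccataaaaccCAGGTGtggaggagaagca
Spint1: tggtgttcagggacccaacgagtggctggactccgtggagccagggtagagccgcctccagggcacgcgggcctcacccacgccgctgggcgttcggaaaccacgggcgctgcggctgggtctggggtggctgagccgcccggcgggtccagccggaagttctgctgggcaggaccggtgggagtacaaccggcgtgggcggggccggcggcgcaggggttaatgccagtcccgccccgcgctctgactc

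**Figure D4:**
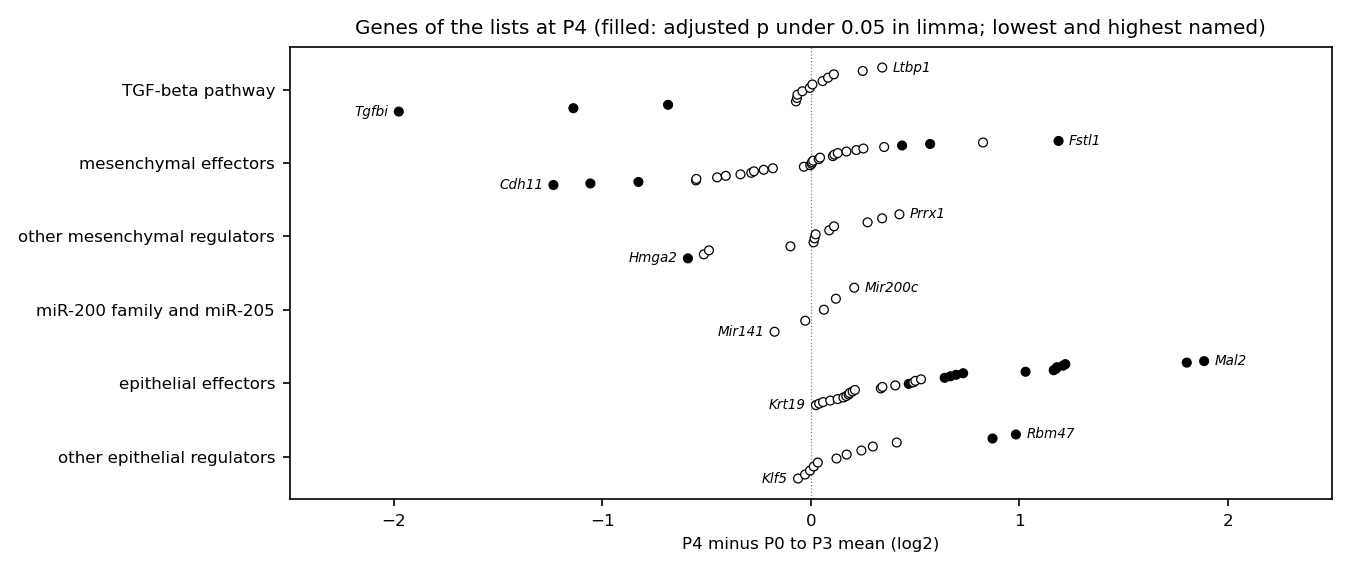
Difference between P4 and the mean of P0 to P3 (x axis, log2) for each measured gene of 6 lists (y axis), ordered within a list by its value. Filled points have an adjusted p under 0.05 in limma, and the lowest and the highest gene of each list are named. Of the epithelial effectors 13 of 30 are filled, all above 0, while the mesenchymal effectors have 3 filled points on each side.

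The mesenchymal lists held genes called in both directions. Of 12 other mesenchymal regulators only Hmga2, a chromatin protein of progenitors, was called at P4 without a block (log2 -0.59, limma adjusted p = 0.0268), and its call was lost without any 1 of the P4 samples. With the first replicates against the others as a block, Foxc1 and Tcf4 were called lower as well (adjusted p = 0.0293 and 0.00836) and Prrx1 higher (0.00324, and 0.0124 within replicates 2 and 3). The median difference of the 12 was 0.0205. Of 30 mesenchymal effectors, the adhesion, cytoskeleton and matrix genes of that state, 3 were lower at P4, 3 were higher and 24 were not called, with a median of 0.00496. Those that fell were Cdh11, a cadherin of mesenchymal cells (11.18 at P0, 10.85 at P3 and 9.83 at P4, difference -1.23), Tnc, a matrix glycoprotein (-1.06), and Vcan, a matrix proteoglycan (-0.83), with limma adjusted p of 2.68e-05, 0.00128 and 0.000188. Those that rose were Fstl1, a secreted glycoprotein (8.58 at P0, 8.66 at P3 and 9.67 at P4, difference 1.19, adjusted p = 6.23e-05), Msn, which links actin to the membrane (0.57, 0.0347), and Tagln, an actin-binding protein (0.44, 0.0445). Leaving out 1 sample left between 1 and 3 genes that rose, with 1 after leaving out P0 replicate 3, P1 replicate 1, P1 replicate 2, P2 replicate 3, P4 replicate 2 or P4 replicate 3. Within replicates 2 and 3 alone, and with either block, 7 of the 30 were lower and 4 higher. Over P0 to P3, 3 of the 30 fell, Pdgfra, Postn and Dcn, all of them also among the stroma markers. Without a block, Cdh2, N-cadherin, had a difference of -0.55 with a limma adjusted p of 0.151, and Fn1, fibronectin, one of 0.83 with 0.165. Their adjusted p with a block is not given here, so these values do not show that they were unchanged. The effectors called only with a block are not named here.

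Transforming growth factor beta is known to induce Snai and Zeb genes in many cells, and genes of its pathway were followed for that reason. Of 14, 3 were lower at P4 and none higher, against 1.25% and 2.23% of all genes. Over P0 to P3, 3 of the 14 fell, against 0.782% of all genes. Tgfbi, a secreted matrix protein named for its induction by the growth factor, had means of 10.28 at P0, 8.69 at P3 and 7.76 at P4 and was 3.94-fold lower at P4 than over P0 to P3 (log2 -1.98, limma adjusted p = 5.4e-06). The ligand genes Tgfb3 (8.10, 6.83 and 6.58 on the same days, difference -1.14) and Tgfb2 (7.53, 6.86 and 6.55, difference -0.68) fell as well, with limma adjusted p of 0.00196 and 0.0016, and these 3 genes were also those with a falling slope. Tgfb1, the 3 receptor genes and the Smad genes were not called. With either block Ltbp1, which encodes a protein that holds the latent ligand in the matrix, was called higher at P4 (0.34, adjusted p = 0.0309 with the replicate number and 0.0407 with the first replicates against the others). The median of the 14 was -0.0226.

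The micro-RNAs of the miR-200 family and miR-205 are known to repress Zeb1 and Zeb2 through sites in their transcripts, and Zeb1 in turn represses the miR-200 genes. The mature sequences from RefSeq are shown because the family falls into groups by its seed, bases 2 to 8, given in capitals. The first 3 share the seed AAUACUG, the next 2 the seed AACACUG, and the last has its own.
miR-200b-3p: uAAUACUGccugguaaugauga
miR-200c-3p: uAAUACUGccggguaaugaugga
miR-429-3p: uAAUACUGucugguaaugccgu
miR-200a-3p: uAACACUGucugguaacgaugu
miR-141-3p: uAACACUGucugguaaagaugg
miR-205-5p: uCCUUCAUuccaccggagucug
The genes of miR-200a, miR-200b and miR-429 lie together on chromosome 4 and those of miR-141 and miR-200c on chromosome 6. The arrays carried probe sets for 5 of the 6 genes, whose values cannot be assigned to the mature form, and Mir429 was not measured. None passed the limma test at P4, over P0 to P3 or from P3 to P4, and 0 of the 5 had p under 0.05 before adjustment at P4. Mir200a had a mean of 6.80 at P0, 6.77 at P3 and 7.01 at P4, and Mir200c of 6.25, 6.26 and 6.48, whereas Mir200b (4.94 at P4), Mir141 (4.48) and Mir205 (5.11) lay below the median of the olfactory receptor genes. The limma adjusted p at P4 was 0.999 for all 5.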

How the data were processed

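RNA of sorted cells was amplified in 1 round (WT-Ovation Pico), labelled with biotin and hybridised to 1-colour Affymetrix arrays. The authors deposited 1 table of log2 values for 35557 probe sets, for which the labels name Affymetrix Expression Console. Its version, the summarisation and the background correction are not stated, and the log2 scale was read from the range. The values were used as deposited. A table of the platform gave 1 symbol for 21789 probe sets, several for 1621 and none for 12147. Of the 19938 genes, 999 had several probe sets, and the one with the highest mean was used.

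A mean for each day was fitted to all 15 arrays with limma 3.58.1 in R 4.3.3 (lmFit, eBayes), two-sided, with Benjamini-Hochberg adjustment over all 19938 genes at 0.05 and no filter on level. Intervals cover 95% with 14.2 degrees of freedom. The number of arrays limits the precision. The procedure was tested on simulated data with independent noise in each sample. Such data lack the shared deviations of same-numbered samples described below. The simulation therefore cannot show how the fit without a block behaves under them. The 10 genes, the gene lists, the tests and the alternatives were chosen with earlier results of these data known. From each list up to 4 genes with the smallest p at P4 were named, and for each member called among the days the 3 genes most like it. Other genes named were picked after their values were seen.

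Alternatives were 2 filters on level, quantile normalisation, an intensity trend, means of probe sets, blocks for the replicate number or for first replicates against the others, replicates 2 and 3 only, and leaving out each sample. Samples of the same number deviated together over P0 to P3 (18 of 18 pairs correlated above 0.1, lowest 0.121) and between P3 and P4 (3 of 3, lowest 0.312), which meets the rule for samples paired by number. The pairing comes from the correlations and not from the labels. The values reported are those without the block. The fit with the block is an alternative given for Zeb1 and Snai2 and where it changes a count. It is also given where it changes the call of a member or of a gene named by its p.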

Additional observations from a re-analysis of the deposited data

How the results depend on the processing

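No alternative in which a called member was tested turned its direction. Both filters on level took out Grhl2 and Esrp1, which left 2 members called at P4 against P0 to P3, 1 at P4 against P3 and 2 for any difference among the days. Over all days, as used for P4 against P0 to P3, same-numbered samples correlated above 0.1 in 29 of 30 pairs (0.0568 to 0.796). The pair below 0.1 was replicate 3 of P1 and P4, and the other pairs deviated together. With the replicate block the genes called were 1491 at P4 against P0 to P3 (694 without), 931 for the slope over P0 to P3 (324), 426 at P4 against P3 (170) and 1493 for any difference among the days (624). With first replicates against the others as a block they were 1390, 841, 394 and 1424. Neither block changed the call of a member except that of Vim among the days, given above. At P4 against P0 to P3 either block gave 7 mesenchymal effectors lower and 4 higher (3 and 3 without), 3 other mesenchymal regulators lower and 1 higher (1 and 0) and 1 gene of the TGF-beta pathway higher (0). Leaving out 1 sample gave 405 to 746 genes and 2 to 4 members at P4 against P0 to P3, 145 to 294 genes and 0 to 1 member for the slope, 89 to 170 genes and 1 to 3 members at P4 against P3, and 409 to 635 genes and 2 to 4 members among the days. The lowest counts came without P4 replicate 2 or 3 (405 and 409 at P4 against P0 to P3, 93 and 89 at P4 against P3, 409 and 410 among the days) and, for the slope, without P0 replicate 3 (145) or P0 replicate 2 (172). Without P3 replicate 2 or 3 the slope gave 194 and 193, and without P3 replicate 1 the count for P4 against P3 was 103. Quantile normalisation, an intensity trend and means of probe sets changed no member's call. The epithelial members lie in the range of dim probe sets before P4, which limits what can be said of their earlier days.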
